A study of Mus musculus with 11 samples.

Results

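The immunoglobulin light chain genes are the kappa and lambda variable segments and constant genes whose transcripts, joined to a heavy chain, make the B cell receptor and antibody. They were taken as the rows of the expression table whose symbol starts with Igkv, Igkc, Iglv or Iglc and whose mean over the 11 libraries was at least 10 normalized reads. This left 114 genes of 168 such rows and of 48593 genes in the table: 106 of 160 Igkv, Igkc, 3 of 3 Iglv and 4 of 4 Iglc. The remaining rows were low, and 8 Igkv rows were at 0 in every library. Members were chosen by their mean level over these libraries, so their levels are given as a description. The 2 members nearest above the limit were Igkv8-26 with a mean of 10.7 and Igkv20-101-2 with 12.7, and the nearest rows below it were Igkv9-128 with 9.43 and Igkv11-114 with 8.98. All 114 members entered the test across genes, which used the same limit.

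Libraries came from germinal center B cells (B220+/PNA+/CD95+) sorted from mouse spleen 12 days after sheep red blood cells had been injected into the peritoneum. The 5 WT libraries came from mice that were Crebbp+/+;Ep300+/+;Cg1cre/+, labelled as littermates from Crebbp crosses. Mice of the 3 Crebbp-KO libraries (CBP-KO_1, CBP-KO_53 and CBP-KO_55) were Crebbpfl/fl;Ep300+/+;Cg1cre/+, and those of the 3 Ep300-KO libraries (p300-KO_18, p300-KO_287 and p300-KO_289) were Crebbp+/+;Ep300fl/fl;Cg1cre/+. All 3 groups therefore carried the same Cre allele, which is driven from the immunoglobulin gamma 1 locus and acts in B cells of the germinal center. The labels name no WT littermates for the Ep300-KO mice, so cross or strain background and the Ep300 deletion cannot be told apart. CREBBP and EP300 are paired lysine acetyltransferases that act at enhancers and promoters, and the comparisons ask how light chain transcripts differ between each knockout and WT, and between the knockouts. Age, sex and sorting day are not given in the sources used here. Each library is labelled with a number of its own, but the labels do not say whether it holds cells of 1 mouse, so n counts libraries and p-values measure the spread between them.

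In a B cell, a kappa V segment on chromosome 6 is joined to 1 of the Igkj segments upstream of the single constant gene Igkc. Cells that do not make a useful kappa chain can join a lambda V segment to a J segment upstream of its own constant gene on chromosome 16. Mouse lambda chains come in isotypes set by the J-C pair used, namely Iglj1 with Iglc1, Iglj2 with Iglc2 and Iglj3 with Iglc3. Most mouse B cells use kappa. In bulk RNA, more cells using a segment and more RNA per cell cannot be told apart.

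The lambda isotypes are close in sequence, which matters for how reads are assigned, so the pairs on which the results turn are printed here from GENCODE M21 transcripts (GRCm38, the same build as mm10), 5′ to 3′, all from the minus strand. The coding parts of Iglc2 and Iglc3 agreed at 303 of 314 aligned bases, or 96.5%. The first 300 bases of Iglc2 (chr16:19198554-19198853) and the 299 that align to them in Iglc3 (chr16:19065383-19065681) hold all 11 bases that differ. Capitals mark these, and the first base of Iglc2, which has no partner in the annotated Iglc3 exon.
Iglc2: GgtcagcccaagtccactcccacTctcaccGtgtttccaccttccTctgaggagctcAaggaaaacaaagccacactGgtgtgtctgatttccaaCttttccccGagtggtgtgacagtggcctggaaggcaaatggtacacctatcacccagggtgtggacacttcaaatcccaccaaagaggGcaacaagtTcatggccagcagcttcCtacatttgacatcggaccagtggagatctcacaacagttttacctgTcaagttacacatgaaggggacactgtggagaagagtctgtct
Iglc3: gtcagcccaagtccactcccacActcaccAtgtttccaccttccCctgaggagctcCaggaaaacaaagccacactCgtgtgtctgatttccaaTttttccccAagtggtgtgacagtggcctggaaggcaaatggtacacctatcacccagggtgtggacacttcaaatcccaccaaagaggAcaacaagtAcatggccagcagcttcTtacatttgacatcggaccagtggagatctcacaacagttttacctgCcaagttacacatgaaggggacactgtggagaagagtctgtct
The coding parts of Iglv1 and Iglv2, each 351 bases, agreed at 340 bases, or 96.9%. Shown are their last 300 bases (chr16:19085017-19085316 and chr16:19260401-19260700), with capitals for the 8 differing bases in them.
Iglv1: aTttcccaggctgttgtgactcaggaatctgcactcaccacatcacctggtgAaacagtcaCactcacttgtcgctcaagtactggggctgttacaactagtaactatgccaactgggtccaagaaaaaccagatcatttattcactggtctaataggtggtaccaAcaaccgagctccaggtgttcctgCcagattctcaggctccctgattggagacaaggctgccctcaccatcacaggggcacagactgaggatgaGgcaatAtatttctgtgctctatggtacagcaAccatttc
Iglv2: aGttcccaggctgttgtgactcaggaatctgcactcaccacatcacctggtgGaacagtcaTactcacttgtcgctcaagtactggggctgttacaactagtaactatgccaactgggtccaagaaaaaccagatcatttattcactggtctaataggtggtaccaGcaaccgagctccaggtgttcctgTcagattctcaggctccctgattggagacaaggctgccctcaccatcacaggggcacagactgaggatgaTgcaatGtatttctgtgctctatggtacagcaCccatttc
The lambda J segments have 38 bases each and are shown without capitals, since they give a second, short readout of the isotype. They lie at chr16:19063225-19063262, chr16:19200198-19200235 and chr16:19067041-19067078.
Iglj1: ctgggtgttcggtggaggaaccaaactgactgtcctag
Iglj2: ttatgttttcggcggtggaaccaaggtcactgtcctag
Iglj3: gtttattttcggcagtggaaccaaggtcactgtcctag
Iglc1 was more distant, with 73.2% identity to Iglc2 and 73.9% to Iglc3. Of the 50-base windows in the annotated exons, 7.65% of those in Iglc2 and 10.7% of those in Iglc3 occurred in the other gene as well. The annotated exons of Iglc2 extend over Iglj2, so reads of this pair are not independent. How the authors' counting treated reads that match several genes is not given in the sources used here, and values of these pairs are uncertain to that extent.

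Depth ran from 53550726 reads in WT_7 to 132861266 in WT_288. Whole-gene counts of the targeted genes were 13773 to 14829 for Ep300 in Ep300-KO libraries against 19310 to 22498 in WT. For Crebbp they were 7541 to 8606 in Crebbp-KO and 7984 to 9584 in WT, which overlap, so the whole-gene count did not separate the Crebbp-KO libraries by label. WT_46 and p300-KO_18 stood apart from the rest. Summed macrophage and monocyte markers were 3539 to 9591 in WT, highest in WT_46, with Crebbp-KO libraries at 1977 to 2905 and Ep300-KO libraries at 2430 to 3287. In p300-KO_18, Xist was at 98751 and the summed Y-linked genes were at 9852. The other libraries had Xist of at least 149307 and Y-linked genes at 11.1 or less, or Xist of at most 117 with at least 22498. Thus p300-KO_18 was the one library with both, at levels between those of the others. Changes without these libraries are given for the light chain and lambda J results that were followed under the alternatives. Genes outside these sets, cell markers and the remaining called Igkv segments were not followed in this way.

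Light chain transcripts took more of the RNA in Ep300-KO cells than in WT cells, with Crebbp-KO cells between. The 114 genes held 0.355% to 0.378% of all normalized values in the 5 WT libraries, 0.395% to 0.428% in the Crebbp-KO libraries and 0.476% to 0.542% in the Ep300-KO libraries. The means were 0.368% ± 0.00936 (SD, n = 5), 0.414% ± 0.0167 (n = 3) and 0.509% ± 0.0334 (n = 3), and no group overlapped another. Without p300-KO_18 the Ep300-KO mean was 0.492%, and without WT_46 the WT mean was 0.372%. Sums over members are described without a test, since the members were chosen with results known.

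Against WT, 25 of the 114 genes were higher in Ep300-KO cells and 0 were lower (limma, Benjamini-Hochberg adjusted p below 0.05 over 16515 genes). Over all genes tested, 5.84% were higher and 6.09% lower. At an unadjusted p below 0.05 in limma, 44 members were higher and 0 lower, and the share over all genes was not computed. The same counts were 21 and 3 in Crebbp-KO against WT, and 20 and 1 in Ep300-KO against Crebbp-KO. On recovered reads, edgeR called 24 members higher and 0 lower, and 983 and 978 of all 16515 genes. DESeq2 called 33 members higher and 0 lower, and 1327 and 1372 of all genes. The 25 were Igkc, Iglc1, Iglc2, all 3 Iglv and 19 of 106 Igkv segments. The median log2 fold change was 0.52 over the members and -0.01 over all genes tested. Libraries of the groups did not overlap for 30 members, or 26.3%, where the share over all genes tested was 19.0%. The count of 25 fell to 14 without p300-KO_18 and to 16 without p300-KO_289.

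Crebbp-KO cells differed from WT cells in fewer of these genes. There, 5 members were higher, namely Iglc1, Iglc2, Igkv4-86, Igkv3-9 and Igkv5-45, and 1 was lower, Iglc3. Igkv3-9 reached the mean limit through its knockout libraries, so its place in this count rests on that filter. With a mean of at least 50 required, 4 of 97 members and 565 of 13335 genes were higher. Over all genes tested 3.48% were higher and 4.88% lower, and the members' shares were 4.39% and 0.877%, near the first and below the second. The median log2 fold change of the members was 0.32 and that of all genes 0.01. Groups did not overlap for 12 members (10.5%), with 16.9% over all genes tested. The count of 5 became 8 without WT_46, 8 without both WT_46 and p300-KO_18, and 2 without CBP-KO_53. The count of 1 became 2 without WT_46 and 0 without CBP-KO_55.

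Set directly against Crebbp-KO, Ep300-KO cells had 7 members higher (Igkc, Iglc1, Iglc2, Iglc3, Iglv1, Igkv17-127 and Igkv9-129) and 1 lower (Igkv4-86). Over all genes tested 4.63% were higher and 4.79% lower, 9.42% in either direction, against 6.14% and 0.877% of members. Groups did not overlap for 26 members (22.8%), with 31.0% over all genes tested. The 7 became 12 without WT_46, 2 without p300-KO_18, 3 without p300-KO_287, 4 without CBP-KO_53 and 3 without CBP-KO_55. The 1 became 0 without WT_7, p300-KO_18, p300-KO_287, CBP-KO_55 or CBP-KO_1. Both knockouts share the WT libraries in the comparisons above.

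**Figure D1:**
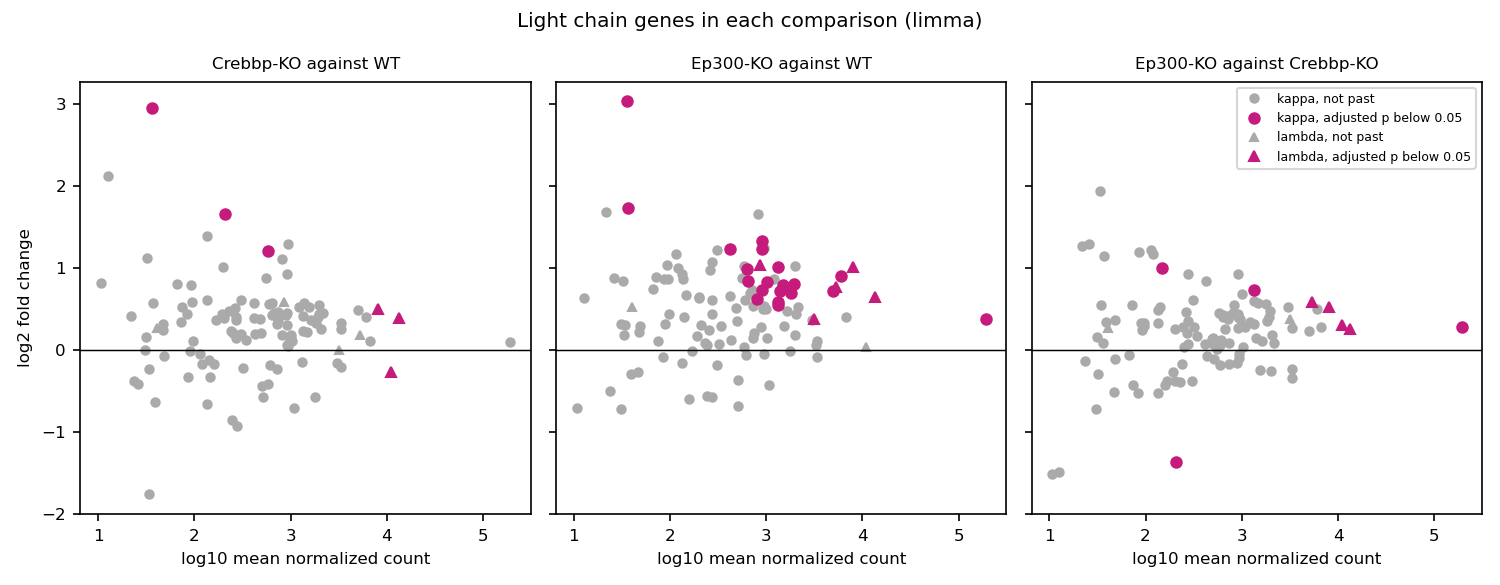
Each point is 1 of the 114 light chain genes, with log10 of its mean normalized count over 11 libraries on the x axis and the log2 fold change on the y axis, for Crebbp-KO against WT, Ep300-KO against WT and Ep300-KO against Crebbp-KO. Pink points passed an adjusted p of 0.05 in limma: 6, 25 and 8 genes, with triangles for lambda and circles for kappa genes.

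Igkc encodes the constant region of every kappa chain and was the highest member. Its normalized count was 180471, 178367, 172725, 170714 and 171573 in WT_4, WT_7, WT_41, WT_46 and WT_288. It was 191759, 190825 and 178249 in CBP-KO_1, CBP-KO_53 and CBP-KO_55, and 246499, 222188 and 213745 in p300-KO_18, p300-KO_287 and p300-KO_289. Every Ep300-KO library lay above every other library, while the lowest Crebbp-KO library lay within the WT range. Igkc rose by 0.38 on the log2 scale in Ep300-KO cells (SE 0.0579, adjusted p = 0.00141, limma), and the fold change was 0.10 in Crebbp-KO cells (adjusted p = 0.364). The direct difference was 0.28 (adjusted p = 0.0175), but it did not pass without p300-KO_18 (adjusted p = 0.071), without both WT_46 and p300-KO_18 (0.0719), without CBP-KO_55 (0.0767) or after quantile normalization (0.133).

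Among the lambda constant genes, Iglc1 and Iglc2 were higher in both knockouts, and Iglc3 was lower in Crebbp-KO cells and close to WT in Ep300-KO cells. Iglc1 was at 10735, 10996, 11989, 9975 and 10526 in WT_4, WT_7, WT_41, WT_46 and WT_288. CBP-KO_1, CBP-KO_53 and CBP-KO_55 held 14782, 14780 and 13236, and p300-KO_18, p300-KO_287 and p300-KO_289 held 18053, 16616 and 16354. The 3 groups did not overlap. The log2 fold change was 0.40 in Crebbp-KO (SE 0.0648, adjusted p = 0.00295, limma) and 0.65 in Ep300-KO cells (adjusted p = 8.5e-05). Between the knockouts it was 0.25 (adjusted p = 0.0454), a call lost with all genes tested (0.0702), without both WT_46 and p300-KO_18 (0.111), and without any one of WT_4, WT_7, WT_288, the Ep300-KO or the Crebbp-KO libraries (0.0565 to 0.172).

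Iglc2 had the largest fold change of the lambda constant genes. It was at 5955, 6364, 6494, 4732 and 5370 in WT_4, WT_7, WT_41, WT_46 and WT_288, at 9654, 7991 and 6921 in CBP-KO_1, CBP-KO_53 and CBP-KO_55, and at 12202, 12073 and 10722 in p300-KO_18, p300-KO_287 and p300-KO_289. No group overlapped another. The rise was 1.02 on the log2 scale in Ep300-KO cells (SE 0.116, adjusted p = 0.000184, limma) and 0.50 in Crebbp-KO cells (adjusted p = 0.0191). Leaving out CBP-KO_53 (0.0662) or CBP-KO_1 (0.0776) ended the Crebbp-KO call. The direct difference of 0.52 (adjusted p = 0.0247) was lost without p300-KO_18 (0.0854), p300-KO_287 (0.0787), CBP-KO_53 (0.0785) or CBP-KO_55 (0.105).

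Iglc3 held 11934, 11181, 12107, 11642 and 10584 normalized reads in WT_4, WT_7, WT_41, WT_46 and WT_288. CBP-KO_1, CBP-KO_53 and CBP-KO_55 held 9885, 9430 and 9287, below every WT library, and p300-KO_18, p300-KO_287 and p300-KO_289 held 12290, 12152 and 10836, within or just above the WT range. It fell by 0.27 on the log2 scale in Crebbp-KO cells (SE 0.0592, adjusted p = 0.0147, limma), a call lost without CBP-KO_53 (0.07) or CBP-KO_55 (0.073). In Ep300-KO cells the log2 fold change was 0.03 (adjusted p = 0.791). The knockouts differed by 0.30 (adjusted p = 0.014), and this was lost without p300-KO_18 (0.0611), p300-KO_287 (0.0516), CBP-KO_53 (0.0535), CBP-KO_55 (0.0604), or both WT_46 and p300-KO_18 (0.0578). Iglc4, a constant gene with little transcript, had 30.5 to 38.1 in WT, 36.4 to 43.7 in Crebbp-KO and 38.4 to 58.9 in Ep300-KO, and passed the test in none of the comparisons.

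**Figure D2:**
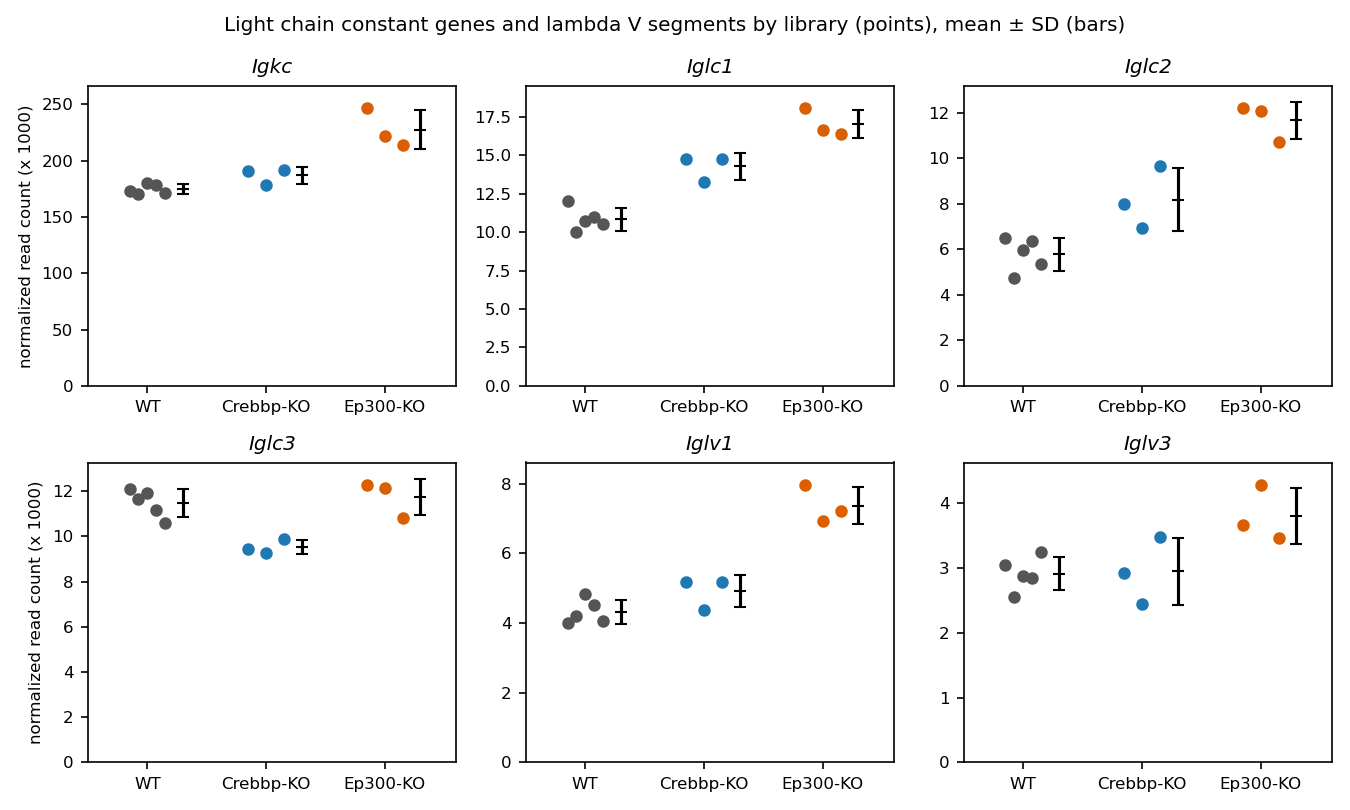
Normalized read counts divided by 1000 (y axis, from 0) of Igkc, Iglc1, Iglc2, Iglc3, Iglv1 and Iglv3 by group (x axis), with 1 point per library and lines for the mean and SD of 5, 3 and 3 libraries. Iglc3 is the constant gene whose Crebbp-KO libraries lie under WT, at 9287 to 9885, and Igkc, Iglc1, Iglc2 and Iglv1 are highest in the Ep300-KO libraries.

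The lambda J segments were called in the same direction as their constant genes in both knockouts against WT, with no call for Iglj3 or Iglc3 in Ep300-KO. For isotype 2 part of this is built in, since Iglj2 lies within an annotated exon of Iglc2. Iglj1 was at 1410 to 1737 in WT, 1965 to 2290 in Crebbp-KO and 2649 to 2807 in Ep300-KO libraries, with log2 fold changes against WT of 0.42 (adjusted p = 0.00597, limma) and 0.75 (adjusted p = 0.000114). Iglj2 was at 620 to 931, 956 to 1299 and 1704 to 1783, with fold changes of 0.47 (adjusted p = 0.0408) and 1.14 (adjusted p = 0.000181). The Iglj2 call in Crebbp-KO was lost with all genes tested, without WT_4, WT_288, any 1 Ep300-KO library, CBP-KO_53 or CBP-KO_1, and without both WT_46 and p300-KO_18 (adjusted p 0.052 to 0.153). Iglj3 was at 899 to 1311 in WT, 757 to 919 in Crebbp-KO and 1305 to 1467 in Ep300-KO libraries. Its WT and Crebbp-KO libraries overlapped by 1 library each, WT_288 and CBP-KO_55. Iglj3 fell by 0.53 in Crebbp-KO cells (adjusted p = 0.0188), a call lost without CBP-KO_53 (0.0942) or CBP-KO_1 (0.0608), and its fold change was 0.24 in Ep300-KO cells (adjusted p = 0.244). It was higher in Ep300-KO than in Crebbp-KO by 0.77 (adjusted p = 0.00448). None of the 5 Igkj segments passed limma's test in a comparison, the lowest adjusted p being 0.0934 for Igkj2 in Ep300-KO against WT.

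Lambda V segments rose in Ep300-KO cells. Iglv1, which joins to the Iglj3 and Iglj1 clusters, was at 4835, 4519, 4008, 4202 and 4065 in WT_4, WT_7, WT_41, WT_46 and WT_288. It was at 5176, 5184 and 4389 in CBP-KO_1, CBP-KO_53 and CBP-KO_55, within or just above the WT range, and at 7974, 6932 and 7223 in p300-KO_18, p300-KO_287 and p300-KO_289, above all others. The log2 fold change was 0.77 against WT (SE 0.0796, adjusted p = 0.000105, limma) and 0.59 against Crebbp-KO (adjusted p = 0.00173). Iglv2 was at 346 to 849 in WT, 699 to 1034 in Crebbp-KO and 1012 to 1429 in Ep300-KO, with a fold change of 1.04 in Ep300-KO against WT (adjusted p = 0.0197). That call was lost without p300-KO_18 (0.0653), p300-KO_289 (0.0888), or both WT_46 and p300-KO_18 (0.0878). Iglv3, the remaining lambda V segment, was at 2559 to 3248, 2446 to 3478 and 3465 to 4289 in the same order. Its rise of 0.38 in Ep300-KO cells was near the threshold (adjusted p = 0.0422) and was lost with all genes tested, without WT_4, WT_7, WT_41 or WT_46, any 1 Ep300-KO library, CBP-KO_53, or both WT_46 and p300-KO_18 (0.0572 to 0.177). No Iglv segment passed the test in Crebbp-KO against WT. There, 2 of the 3, and 24 of all 114 members, had an unadjusted p below 0.05 in limma. The share over all genes at that level was not computed.

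Kappa dominated in every library. Lambda constant genes held 13.4% to 15.1% of light chain constant reads in WT, 14.2% to 15.2% in Crebbp-KO and 14.7% to 15.5% in Ep300-KO libraries. The means were 13.9% ± 0.692 (SD, n = 5), 14.6% ± 0.521 (n = 3) and 15.1% ± 0.406 (n = 3), or 6.22, 5.85 and 5.62 kappa reads per lambda read. WT_41 at 15.1% (95% Wilson interval 14.9% to 15.2%, counting error only) lay among the knockouts, while the other WT libraries stood at 13.4% to 13.8%, below every knockout library. The groups therefore overlapped through WT_41. Counted at the V segments instead, lambda made up 8.79% to 9.85% in WT, 8.29% to 9.28% in Crebbp-KO and 10.6% to 10.8% in Ep300-KO libraries. On this readout the Ep300-KO libraries were above all others, and the Crebbp-KO libraries overlapped WT.

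Within lambda, the isotypes were shared out differently. Iglc3 was 39.5% of the Iglc sum in WT_41, 44.1% in WT_46, 41.6% in WT_4, 39.1% in WT_7 and 39.9% in WT_288. In CBP-KO_1, CBP-KO_53 and CBP-KO_55 it was 28.8%, 29.3% and 31.5%, and in p300-KO_18, p300-KO_287 and p300-KO_289 it was 28.8%, 29.7% and 28.6%. The 6 knockout libraries lay below the 5 WT libraries, with 31.5% the highest knockout and 39.1% the lowest WT share. The Iglc2 share was 20.5% ± 1.61 in WT (SD, n = 5), 25.5% ± 2.38 in Crebbp-KO (n = 3) and 28.8% ± 0.651 in Ep300-KO (n = 3), and the Iglc1 share was 38.5% ± 0.927, 44.6% ± 1.44 and 42.0% ± 1.27. WT libraries did not overlap the knockouts for either constant gene.

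At the J segments, WT again had the highest isotype 3 share, while the order of the knockout means turned. Iglj3 was 27.2% to 35.96% of the lambda J sum in WT, 17.8% to 23.9% in Crebbp-KO and 22.9% to 24.2% in Ep300-KO libraries, with means of 32.9%, 20.1% and 23.8%. Iglj2 was 19.6% to 23.6%, 24.9% to 29.7% and 29.4% to 30.4%. Iglj1 was 43.2% to 49.3%, 51.2% to 55.3% and 45.5% to 47.1%, so for isotype 1 the Ep300-KO libraries lay within the WT range at the J segment, unlike at the constant gene. Behind the lower Iglc3 share, Iglc1 and Iglc2 levels were higher in both knockouts, and the Iglc3 level was lower in Crebbp-KO but not called in Ep300-KO cells. The lambda locus lies on chromosome 16, where Crebbp (chr16:4081328-4213997) is 14.8 Mb from Iglc1 (chr16:19061618-19062071), and Ep300 is on chromosome 15. Strain alleles at the lambda locus that came with either cross cannot be told apart from the genotype.

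**Figure D3:**
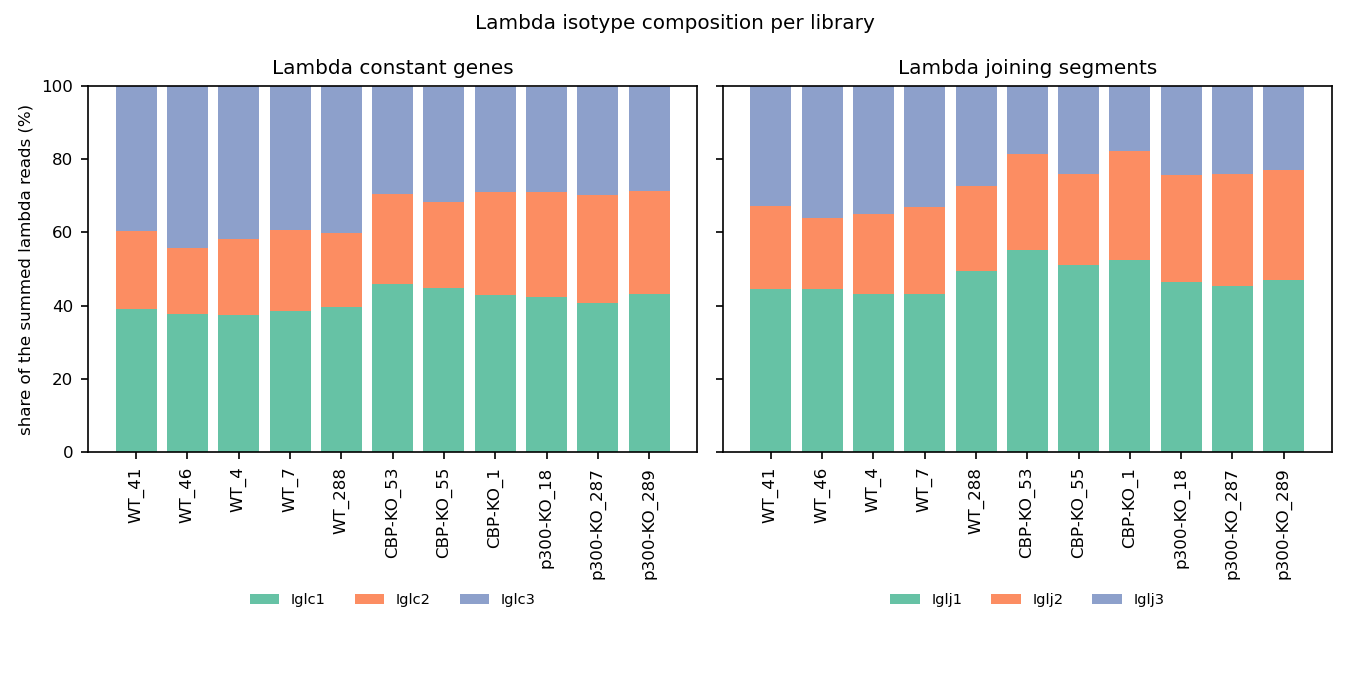
Bars give, for each of the 11 libraries (x axis), the share in percent (y axis) of Iglc1, Iglc2 and Iglc3 in the summed lambda constant reads (left) and of Iglj1, Iglj2 and Iglj3 in the summed lambda J reads (right); Iglc4, at most 0.148%, is too thin to see. The uppermost block, isotype 3, is 39.1% to 44.1% of constant reads in WT and 28.6% to 31.5% in the knockouts.

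The kappa V segments lie on chromosome 6 from 67555497 to 70704177, 41 members on the plus strand, as Igkj1, and 65 on the minus strand. Segments on the strand of Igkj1 join by deletion of the DNA between, and those on the other strand by inversion. GENCODE lists 97 of the 106 as V genes and 9 as pseudogenes, which together held 0.514% to 0.957% of the Igkv sum. A median of 23.4% of a segment's 50-base windows occurred in another immunoglobulin gene, 24 segments had no such window and 15 had over 50%, so single values of close relatives are uncertain. Means ran from 10.7 to 6697 normalized reads with a median of 426.

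Usage was broad and uneven. The 10 segments with the highest means were Igkv1-117, Igkv14-111, Igkv1-135, Igkv1-110, Igkv6-23, Igkv16-104, Igkv6-15, Igkv6-17, Igkv12-44 and Igkv5-43. The 10 largest in a library held 40.1% to 52.2% of its Igkv sum, and 10 to 15 segments were enough for 50%. The effective number of segments, the count of equally used segments that would give the same evenness (the inverse Simpson index), was 18.6 in WT_46 and 33.2 to 40.0 in the other WT libraries. It was 31.7 to 35.6 in Crebbp-KO and 32.3 to 36.1 in Ep300-KO libraries, within or just below the range of those 4 WT libraries.

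Igkv1-117 was by far the largest segment of WT_46. It was at 12267 normalized reads in WT_46 and at 4665 to 4974 in the other WT libraries, 5596 to 7289 in Crebbp-KO and 7587 to 7762 in Ep300-KO libraries. In WT_46 it made up 18.5% of the Igkv sum (95% Wilson interval 18.2% to 18.9%), and 6.07% to 7.96% elsewhere. Igkv1-117 passed no test with all libraries, with log2 fold changes of 0.11 in Crebbp-KO (adjusted p = 0.849, limma) and 0.40 in Ep300-KO against WT (adjusted p = 0.362). Without WT_46 these were 0.38 (adjusted p = 0.00784) and 0.67 (adjusted p = 0.000195), and the knockouts differed by 0.29 (adjusted p = 0.0387), which did not hold when p300-KO_18 was left out as well (0.0851). Igkv1-117 and Igkv1-110 are relatives, with 49.9% of the windows of Igkv1-117 shared, and Igkv1-110 was also highest among WT libraries in WT_46, at 4354. WT_46 was the lowest of all libraries for 42 of 106 Igkv segments.

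The spread within groups was wide for several of the common segments. Igkv16-104 was at 1257 to 5451 normalized reads in WT, 1320 to 6548 in Crebbp-KO and 2248 to 4116 in Ep300-KO libraries. Igkv6-23 was at 1633 to 4410, 2341 to 4604 and 2244 to 4174 in the same order. Groups overlapped for both. For Igkv6-15 the ranges were 2539 to 3397, 1703 to 3647 and 3172 to 4138. For Igkv6-17 they were 1316 to 2234, 1671 to 2970 and 1918 to 2870. Igkv12-44 stood at 1376 to 2166, 1698 to 2585 and 1785 to 3185, and Igkv5-43 at 1416 to 2371, 1935 to 2884 and 1419 to 2390. These 6 segments and Igkv1-110 passed the test in none of the comparisons, so of the 10 most common segments Igkv14-111 and Igkv1-135 were called.

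**Figure D4:**
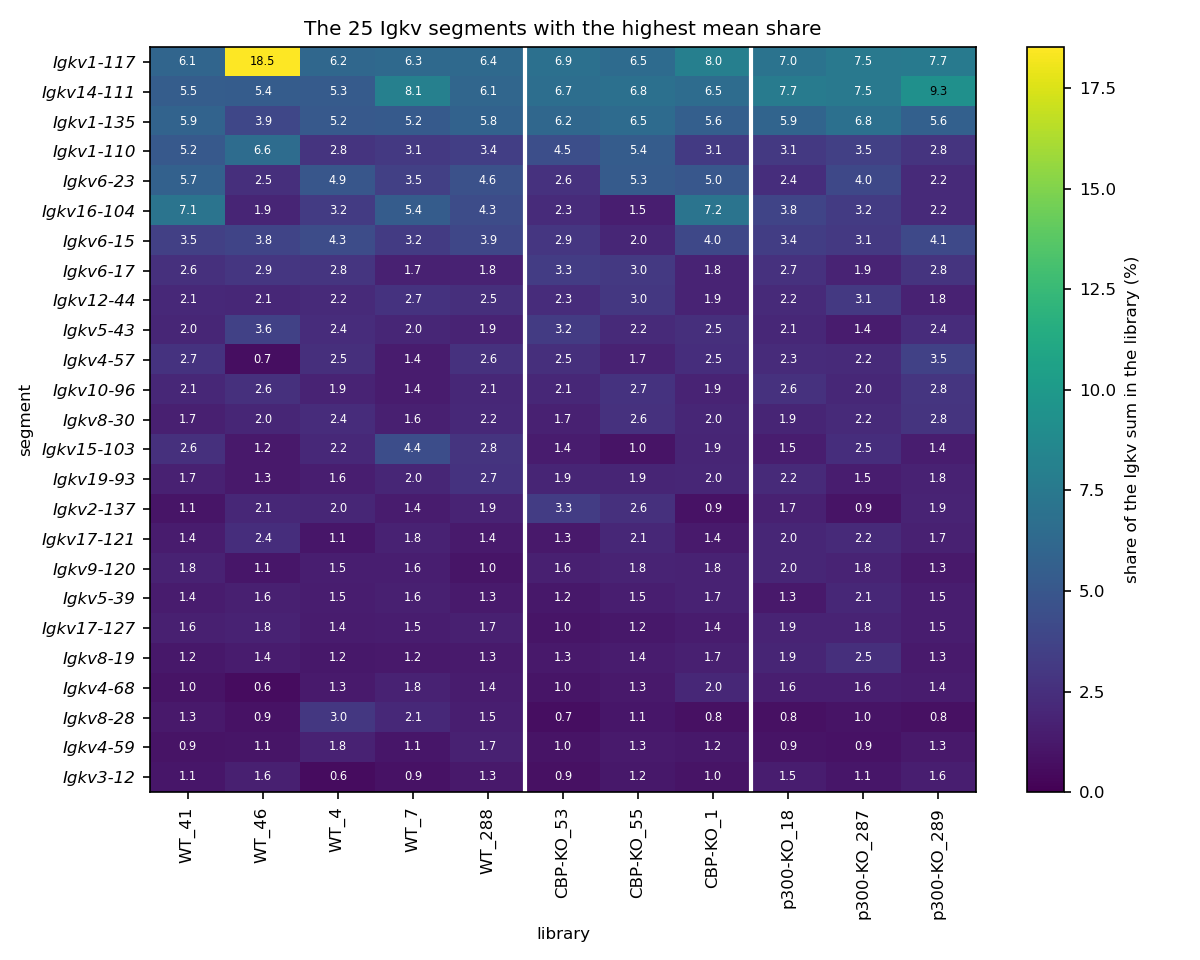
Share in percent of the Igkv sum (color and printed value) of the 25 segments with the highest mean share (rows) in each of the 11 libraries (columns), with white lines between WT, Crebbp-KO and Ep300-KO. Igkv1-117 reaches 18.5% in WT_46, and no other cell exceeds 9.30%.

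Distances in usage within and between groups overlapped. The share of Igkv reads that would have to move to another segment to turn one library's usage into another's had a median of 16.5% over 10 WT pairs, 17.5% over 3 Crebbp-KO pairs and 12.6% over 3 Ep300-KO pairs. It was 17.3% between WT and Crebbp-KO, 16.4% between WT and Ep300-KO and 15.1% between the knockouts. Without WT_46, an alternative chosen after seeing the data, the medians were 13.9% over 6 WT pairs, 16.1% between WT and Crebbp-KO and 16.01% between WT and Ep300-KO. The WT and Ep300-KO medians were then below those between groups, and the Crebbp-KO median of 17.5% above them. WT_46 was on average 24.3% from the others, and the other 10 libraries 15.2% to 17.9%. The coefficient of variation over the WT libraries ran from 3.77% for the steadiest segment to 117%, with a median of 38.2%.

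By level, not by share of the Igkv sum, 19 Igkv segments were higher in Ep300-KO than in WT cells. The Igkv sum itself was 66249 to 79148 in WT, 86432 to 91525 in Crebbp-KO and 100584 to 107841 in Ep300-KO libraries. The median log2 fold change over the 106 segments was 0.51 in Ep300-KO against WT, so rises near it do not show a larger share. Of the 19 segments, 8 lie on the plus and 11 on the minus strand, where all 106 members split into 41 and 65. By distance to Igkj1, 10 lie within 1000 kb, 2 from 1000 to 2000 kb and 7 beyond. For all 106 members these were 39, 36 and 31. Igkv14-111, with no 50-base window in common with another gene, was at 4187, 6364, 4205, 3568 and 4629 in WT_4, WT_7, WT_41, WT_46 and WT_288, at 5988, 5951 and 5920 in CBP-KO_1, CBP-KO_53 and CBP-KO_55, and at 8308, 7744 and 9351 in p300-KO_18, p300-KO_287 and p300-KO_289. The Ep300-KO libraries lay above all others, and WT_7 lay above the Crebbp-KO libraries. It rose by 0.91 on the log2 scale (SE 0.139, adjusted p = 0.00143, limma).

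Igkv8-19 was at 926 to 1011 in the WT libraries, the narrowest spread of any Igkv segment, and at 1356 to 2582 in Ep300-KO libraries, a rise of 1.02 (adjusted p = 0.00185, limma). Igkv17-127 was similarly steady in WT, at 1099 to 1259, and stood at 1505 to 2008 in Ep300-KO and 911 to 1294 in Crebbp-KO libraries. It rose by 0.58 against WT (adjusted p = 0.0066) and by 0.73 against Crebbp-KO (adjusted p = 0.00453). Igkv10-96 rose by 0.80, Igkv12-41 by 0.99 and Igkv1-135 by 0.72, with adjusted p of 0.0047, 0.00743 and 0.00815. Their Ep300-KO libraries also lay above every WT library. For Igkv1-135, WT_46 was the lowest library at 2595, with the other WT libraries at 4081 to 4510 and Ep300-KO at 5679 to 7065. The other 13 segments rose by 0.55 to 3.04.

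In Crebbp-KO cells the 3 higher segments were of low to middle level. Igkv4-86 was at 65.7 to 181 in WT and 91.9 to 226 in Ep300-KO libraries, below CBP-KO_53 at 293, CBP-KO_55 at 417 and CBP-KO_1, the highest. It rose by 1.67 against WT (SE 0.327, adjusted p = 0.008, limma) and was the one member lower in Ep300-KO than in Crebbp-KO, by -1.36 (adjusted p = 0.0362). The latter was lost with all genes tested and without WT_7, p300-KO_18, p300-KO_287, CBP-KO_55 or CBP-KO_1 (0.0503 to 0.129). Igkv5-45 was at 196 to 536 in WT and 586 to 1058 in Crebbp-KO libraries, a rise of 1.21 (adjusted p = 0.0334). It was lost without WT_7, CBP-KO_53, CBP-KO_55, or both WT_46 and p300-KO_18 (0.0543 to 0.162). Igkv5-45 shares 50.9% of its windows with other genes, Igkv5-43 first among them.

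Igkv3-9 had the largest fold changes of the called members and was rare in WT. It was at 1.86, 26.2, 1.87, 7.88 and 9.37 in WT_4, WT_7, WT_41, WT_46 and WT_288. CBP-KO_1, CBP-KO_53 and CBP-KO_55 held 43.4, 54.1 and 72.1, and p300-KO_18, p300-KO_287 and p300-KO_289 held 55.3, 47.1 and 78.1. All 6 knockout libraries were above WT_7, the highest WT library. The mean of 36.1 over all libraries, which made Igkv3-9 a member, was raised by the knockout libraries. WT_4, WT_41, WT_46 and WT_288 lay below the limit for members. Its calls and its rank among fold changes therefore rest on a filter passed through the groups where it was high. The log2 fold change was 2.95 in Crebbp-KO (adjusted p = 0.0129, limma) and 3.04 in Ep300-KO cells (adjusted p = 0.00831), on a scale with 1 added to each value. Under the alternatives it ran from 2.03 to 3.43 in Crebbp-KO and from 2.10 to 3.51 in Ep300-KO cells. In Crebbp-KO the call was lost without CBP-KO_53 (0.0535) or CBP-KO_55 (0.068). Igkv9-129 was at 99.3 to 149 in WT, 70.0 to 129 in Crebbp-KO and 182 to 237 in Ep300-KO libraries. It was higher in Ep300-KO than in Crebbp-KO by 0.997 (adjusted p = 0.0268), which was lost without any 1 Ep300-KO library or CBP-KO_1 (0.0513 to 0.0929).

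Single libraries also held peaks of their own, chosen here after their values were seen. Igkv4-91 was at 3964 in CBP-KO_53 and at most 1095 elsewhere. Igkv14-100 was at 1646 in p300-KO_18 and at 214 to 995 in the other libraries. Igkv4-69 was at 917 in p300-KO_18 and at most 301 elsewhere. At the low end, Igkv1-115, listed as a pseudogene, ran from 0 in WT_4 to 156 in CBP-KO_1 and 138 in p300-KO_18.

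Use along the locus is described by distance and strand. Segments over 2000 kb from Igkj1 held 45.0% ± 5.35 of the Igkv sum in WT (SD, n = 5), 44.0% ± 1.04 in Crebbp-KO (n = 3) and 45.7% ± 1.44 in Ep300-KO (n = 3). WT_46 was at 53.1% and the other WT libraries at 38.7% to 45.8%, and the ranges of all groups overlapped. Those within 1000 kb held 37.3% ± 2.30, 37.2% ± 1.92 and 36.4% ± 1.17. Plus-strand segments held 44.3% to 59.5% in WT, with WT_46 the highest, and 49.2% to 51.3% over the 6 knockout libraries. Of V families, family 10 stood at 2.50% to 3.48% in WT, 2.79% to 3.84% in Crebbp-KO and 3.97% to 4.21% in Ep300-KO. Family 14 had 6.32% to 8.66%, 7.26% to 8.36% and 8.32% to 10.1%.

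**Figure D5:**
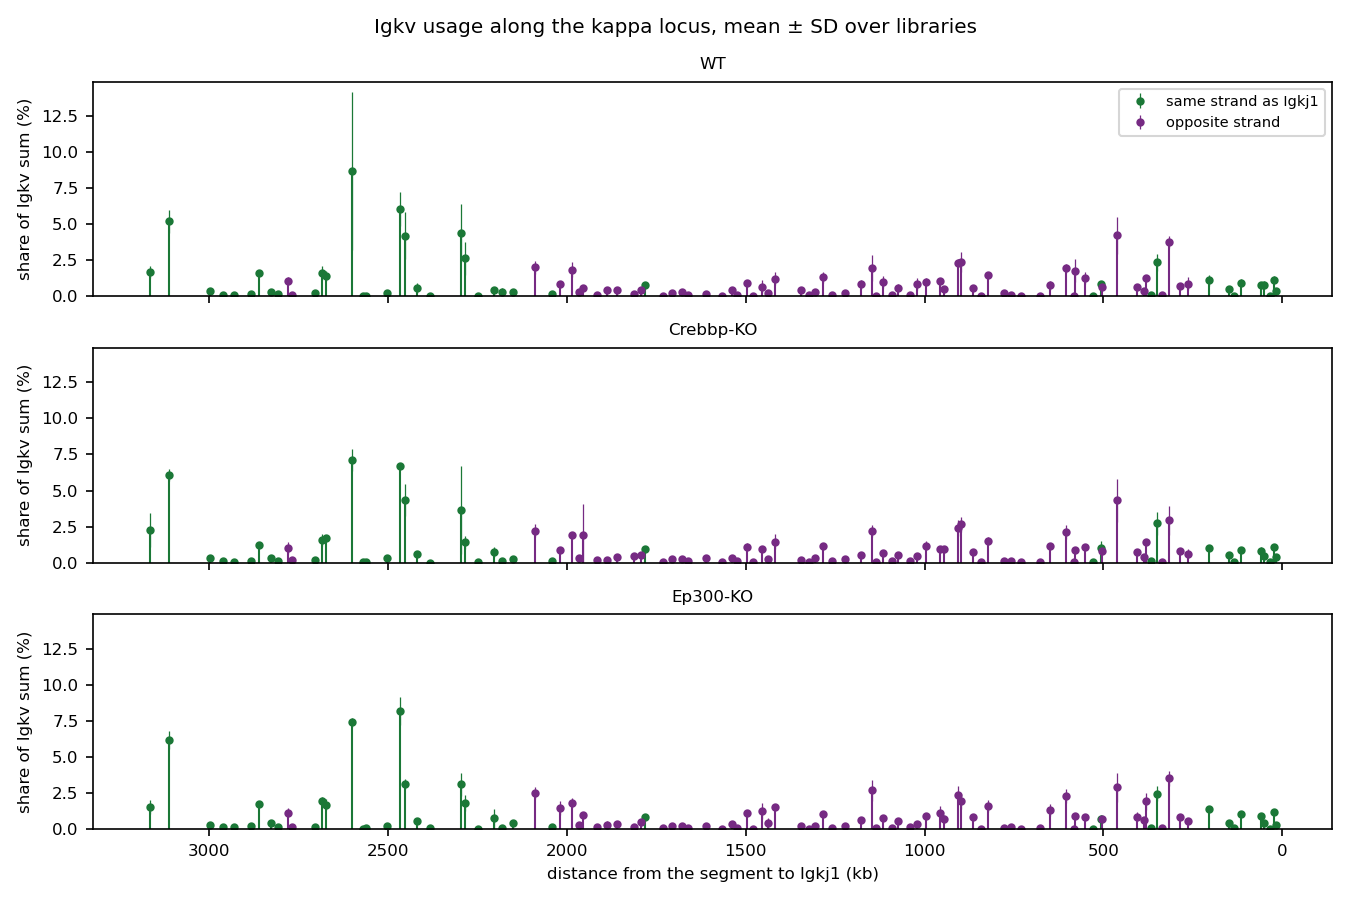
Share in percent of the Igkv sum (y axis, mean ± SD over libraries) of each of the 106 segments against its distance in kb to Igkj1 (x axis), by group, green for the strand of Igkj1 and purple for the other strand. The tallest bar in WT is Igkv1-117, whose wide error bar comes from 18.5% in WT_46 and 6.07% to 6.36% in the other WT libraries.

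Heavy chain constant genes were set beside the light chains. Their sum was 361989 in WT_46, 490935 to 522004 in the other WT libraries, 491659 to 527865 in Crebbp-KO and 555795 to 592791 in Ep300-KO libraries. Light chain constant reads per heavy chain constant read were 0.390 to 0.424 in WT without WT_46, 0.544 in WT_46, 0.423 to 0.428 in Crebbp-KO and 0.444 to 0.495 in Ep300-KO. Of 8 heavy chain constant genes, Ighe, that of IgE, rose by 2.15 in Ep300-KO against WT (adjusted p = 0.00261, limma), and Igha, that of IgA, fell by 0.66 in Crebbp-KO (adjusted p = 0.0407). The other genes in each of these comparisons with WT did not pass. In Ep300-KO against Crebbp-KO, 1 of the 8 genes was higher (12.5%) and 0 lower, with 4.63% and 4.79% over all genes tested.

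Genes that make, regulate or partner light chains were read against the shares over all genes tested, 5.84% higher and 6.09% lower in Ep300-KO and 3.48% and 4.88% in Crebbp-KO, each against WT. Among 19 transcription factors of light chain enhancers and promoters, 1 was higher (5.26%) and 3 lower (15.8%) in Ep300-KO against WT. Tcf12 rose by 0.28 (adjusted p = 0.0162), while Tcf3, which encodes the E2A proteins, fell by 0.35 (adjusted p = 0.000844), Tcf4 fell by 0.35 (0.0132), and Id3, an inhibitor of E proteins, fell by 0.84 (0.000672, limma). In Crebbp-KO, 0 were higher and 2 lower (10.5%), with Irf4 falling by 0.73 (adjusted p = 0.0029) and Irf8 by 0.32 (0.00748). IRF4 and IRF8 act at the light chain enhancers.

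Of 8 tested genes of recombination and editing, 3 were higher in Crebbp-KO (37.5%) and 2 lower in Ep300-KO cells (25%). Rag1, the recombinase, was low, at 16.7 to 41.2 in WT, 64.9 to 80.8 in Crebbp-KO and 2.56 to 9.59 in Ep300-KO libraries, with fold changes of 1.5 (adjusted p = 0.0397, limma) and -1.90 (0.00963). Lig4, which joins the broken ends, rose by 0.27 in Crebbp-KO (adjusted p = 0.0281) and fell by 0.66 in Ep300-KO cells (0.000106). Xrcc6, a Ku subunit, rose by 0.36 in Crebbp-KO (0.0204). Of the surrogate light chain and receptor partners, Vpreb3 fell by 0.52 in Ep300-KO (adjusted p = 0.00146), and Cd79a, which carries the receptor signal, fell by 0.33 in Crebbp-KO (0.021). The surrogate chain gene Vpreb2 was at 0 in every library.

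Plasma cells hold much light chain RNA, so their markers are given beside these results. Of 18 tested markers of 20, 6 were higher (33.3%) and 1 lower (5.56%) in Ep300-KO against WT, and 2 were higher (11.1%) and 3 lower (16.7%) in Crebbp-KO. The smallest p in Ep300-KO were those of Creb3l2, which rose by 1.83 (adjusted p = 0.000114, limma), Cd93, which fell by 1.53 (0.000145), Xbp1 and Hsp90b1, a chaperone that rose by 0.65 (0.000632). Xbp1, which drives secretion, rose by 0.48 (adjusted p = 0.000231). Sdc1, Prdm1 and Jchain are added as defining markers outside the rule for named genes. Sdc1, the plasma cell surface marker CD138, was at 68.3 to 140 in WT, 178 to 198 in Crebbp-KO and 274 to 426 in Ep300-KO libraries, a rise of 1.60 in Ep300-KO (adjusted p = 0.000886, limma). Prdm1, the plasma cell regulator, did not pass against WT (adjusted p = 0.0934), and Jchain rose by 0.32 (0.0366). Summed markers were 339744 to 395642 in WT, 352319 to 385171 in Crebbp-KO and 371237 to 402810 in Ep300-KO libraries. Only Tnfrsf17 was at 0 in any library. The part of plasma cells in the light chain differences was not tested.

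Markers of other cells are given likewise. Of 12 T cell markers, 6 were tested, and 0 were higher and 3 lower (50%) in Crebbp-KO and 0 higher and 1 lower (16.7%) in Ep300-KO against WT. Their sum was 13699 to 16972 in WT, 8012 to 8891 in Crebbp-KO and 9140 to 10152 in Ep300-KO libraries, with Cd3e, Cd3g, Cd8a, Cd8b1 and Icos at 0 in at least 1 library. Of 14 macrophage and monocyte markers, 10 were tested, with 4 lower (40.0%) in Crebbp-KO and 1 lower (10%) in Ep300-KO. C1qb, C1qc, Vcam1, Mertk, Marco, Cd14 and Fcgr1 were at 0 in at least 1 library. Of 9 naive and follicular B cell markers, 0 passed in any comparison, with sums of 19843 to 36195, 18336 to 28224 and 32152 to 39889. Germinal center markers were 0 higher and 3 lower (25%) of 12 in Crebbp-KO, and 2 higher and 2 lower (16.7% each) in Ep300-KO, with sums of 590200 to 647503, 514968 to 629393 and 600069 to 655853. The part of these cells in the results was not tested.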

How the data were processed

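The deposited table holds signal values, 1 column per library, that the authors made by dividing gene read counts by 1 size factor per library, and it is named as DESeq2 normalized. Per the submitters' processing notes, CASAVA 1.8, HISAT2, featureCounts and DESeq2 were used with build mm10. Settings, strandedness and treatment of multiply matching reads are not given in the sources used here. Strand is not kept by the TruSeq RNA v2 kit that the labels' protocols name. Mutated or shared V segment reads may be lost or assigned to a relative. Values were whole multiples of 1 step per column for 100% of values within 1e-06, so read counts were recovered and summed as depth.

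The test was limma 3.58.1 with a trended variance, applied after log2(value + 1) to the 16515 of 48593 genes whose mean reached 10. All 11 libraries entered it, each group with its own mean. Calls were two-sided, at 0.05 after Benjamini-Hochberg adjustment over these genes. Every adjusted p printed comes from limma unless another tool is named. Shares and ratios were computed per library with Python 3.11.15 and pandas 2.3.3 and are described without a test. Intervals are 95% Wilson intervals. Alternatives were count tests on recovered reads (edgeR 4.0.16, DESeq2 1.42.0), other pseudocounts and filters, quantile normalization, each library left out in turn, and WT_46 and p300-KO_18 left out together. Positions and sequences came from GENCODE M21, which held all 114 members by symbol. The fit was also run on simulated data, whose outcome is not given here and is not used to support the calls. Text names every Igkc, Iglc and Iglv member, the 10 Igkv members with the highest mean, up to 6 called Igkv members per comparison and direction with the smallest p, members at the limit, those with at least 10% of the Igkv sum in 1 library, and up to 4 genes with the smallest p per related list, read as per comparison. Related genes that are at 0 in a library, and defining plasma cell markers, are named beside these. The members and the lists were chosen with earlier results of these data known.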

Additional observations from a re-analysis of the deposited data

Results flagged for a closer look

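Of 39 sets of 5 WT values examined for 1 library far from the rest, 5 stood out, and chance alone gives about 1 in 20 per set. The sets were not independent, so the 5 cannot be set against that rate. All but the first below are of WT_46, and its largest Igkv share is that of Igkv1-117. The groups of 3 libraries were not examined in this way. The lambda share of light chain constant reads was 15.1% in WT_41, with the other WT libraries at 13.4% to 13.8%. The ratio of light to heavy chain constant reads was 0.544 in WT_46 and 0.390 to 0.424 in the others. The largest share that 1 Igkv segment took of the Igkv sum was 18.5% in WT_46, where it was Igkv1-117, and 6.15% to 8.07% in the others. Igkv1-117 was at 12267 normalized reads in WT_46 against 4665 to 4974. Igkv1-135 was at 2595 in WT_46 against 4081 to 4510.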

How the results depend on the processing

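Replicate numbers are not shared between groups, so no paired fit was made. Of 49 gene results followed under every alternative, 35 passed the threshold, and 19 of these kept direction and call throughout. Among the 19, in Ep300-KO against WT, were Igkc, Iglc1, Iglc2, Iglv1, Iglj1, Iglj2 and the 6 Igkv segments with the smallest p. Called Igkv segments were followed mainly for their small p, so these counts do not describe the other called segments. With DESeq2, 900 of all genes and 9 members were higher in Crebbp-KO against WT, and 1188 genes and 14 members in Ep300-KO against Crebbp-KO. With no filter, 0 members were lower in the latter. Without both WT_46 and p300-KO_18, 8 members were higher and 2 lower in Crebbp-KO against WT, and 2 lower in Ep300-KO against Crebbp-KO. Leaving out 1 library gave, for Crebbp-KO against WT, 222 to 658 genes higher and 375 to 886 lower, with 2 to 8 and 0 to 2 members. For Ep300-KO against WT it gave 547 to 1011 genes higher and 622 to 1024 lower, with 14 to 26 and 0 members. For the knockouts against each other it gave 350 to 1024 and 397 to 934 genes, with 2 to 12 and 0 to 1 members. The lambda share in WT, Crebbp-KO and Ep300-KO was 15.2%, 15.8% and 16.2% per kb of exon, and 9.46%, 8.95% and 10.7% from V segments. Without 1 library the share of constant reads was 13.6% to 14.0%, 14.3% to 14.8% and 14.9% to 15.3%. The light chain share of all values was then 0.366% to 0.372%, 0.406% to 0.423% and 0.492% to 0.526%. The effective number of Igkv segments was 30.9 to 36.3, 33.0 to 34.9 and 32.8 to 34.7, or 50.6, 51.4 and 51.8 from Shannon entropy. The light to heavy ratio was 0.409 to 0.447, 0.425 to 0.428 and 0.448 to 0.474, and Igkc over Ighm was 0.822, 0.902 and 0.836. Signs turned, near 0 and with no call, for Iglc3 in Ep300-KO against WT, which ran from -0.000104 without p300-KO_18 to 0.0907 without p300-KO_289. They also turned for Iglv3 in Crebbp-KO against WT, from -0.119 without CBP-KO_1 to 0.135 without CBP-KO_55, with -0.0393 without WT_46 (with or without p300-KO_18) and -0.00075 without WT_7. The cause was not tested. Igkc, Iglc1, Iglc2 and Iglc3 rest on many reads. Iglc4, with a mean of 40.4 normalized reads, and low segments such as Igkv3-9, at 1.86 in WT_4, rest on few.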
